A study of Saccharomyces cerevisiae with 9 samples.

Results

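The comparison is between 60 min and 15 min of recovery after thawing in Saccharomyces cerevisiae, each time measured as a log2 ratio of messenger RNA to the same kind of culture before freezing. It used 6 of the 9 arrays of the series, 3 at each time, and the 1871 of 5189 genes with a value on all 6 arrays. The cells were strain S288C, a laboratory strain, grown in YPD, a rich glucose medium, at 30 °C to an absorbance of 1.0. Per the labels, a 600 ml culture gave a 200 ml control, taken before freezing, and 400 ml that stayed at -80 °C for 1 week with no cryoprotectant. A water bath at 30 °C thawed them over 25 min, and 100 ml was taken 15 or 60 min after the end of the thaw. Poly(A) RNA of the recovering cells was labelled with Cy5 and that of the control with Cy3 on every array. All groups share the freeze, the storage and the thaw, and by the labels 60 and 15 min differ only in the time after the thaw. The times were measured on different arrays, so differences between arrays enter the comparison too. The ratios were normalized within each array, so they do not show a change of total messenger RNA per cell, and fewer surviving cells and less RNA per cell cannot be told apart. The series describes the 3 samples of a time as independent biological samples.

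A positive difference means a higher ratio at 60 min than at 15 min. The tables do not state the direction of the ratio, which was taken as recovering cells over control from the array titles and from the channel order. All 36 correlations between pairs of the 9 arrays were positive, the lowest at 0.0858 over all genes that a pair of arrays shares. Over the 1871 tested genes those between a 15 and a 60 min array were positive too, from 0.0488 up. No array thus stood out as reversed, but the lowest correlations are too low to settle that all arrays ran in the same direction. Every sign below would turn if the ratio was formed the other way.

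Yeast cells under stress raise a common set of transcripts for chaperones, redox enzymes, carbohydrate stores and vacuolar breakdown, and lower the transcripts that serve ribosome production. Ribosome production takes assembly factors, which build and export the subunits in the nucleolus and nucleus, and the ribosomal proteins themselves. Membrane lipids are remodelled under cold and oxygen limitation by fatty acid desaturation and sterol synthesis, and the fatty acid desaturase Ole1 is a known target of such control.

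The arrays came from a pair of platforms, with replicate 1 of each time on the first and replicates 2 and 3 on the second. The number of genes with a value ran from 2603 to 5087 per array at 15 min and from 3636 to 4624 at 60 min. Over all genes that a pair shares, the 3 arrays of 15 min correlated at 0.15 to 0.30 with each other, and those of 60 min at 0.60 to 0.66. The spot IDs, read as positions, place the spots in 32 sectors, in 4 rows and 8 columns, of 196 spots each. That reading is an inference from the IDs, since the tables give no layout. Along the columns the median difference ran from -0.88 in column 1 to 0.68 in column 8, and the sector accounted for 48.1% of the variance of the difference between spots. On single arrays the sector accounted for 31.8%, 52.0% and 27.0% of the variance at 15 min, and for 18.0%, 56.9% and 31.9% at 60 min, so replicate 2 stood apart at both times. What made the ratio follow the position was not tested. Gene and list results are therefore given as deposited and, in most cases, also with every array centred on its median within each sector, a choice made after the data were seen. The centring moved the median difference of all tested genes from 0.07 to -0.12, a shift of -0.19, and narrowed their SD from 0.749 to 0.541. It raised the correlations among the 15 min arrays to 0.32 to 0.53 and left those among the 60 min arrays at 0.52 to 0.72.

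**Figure D1:**
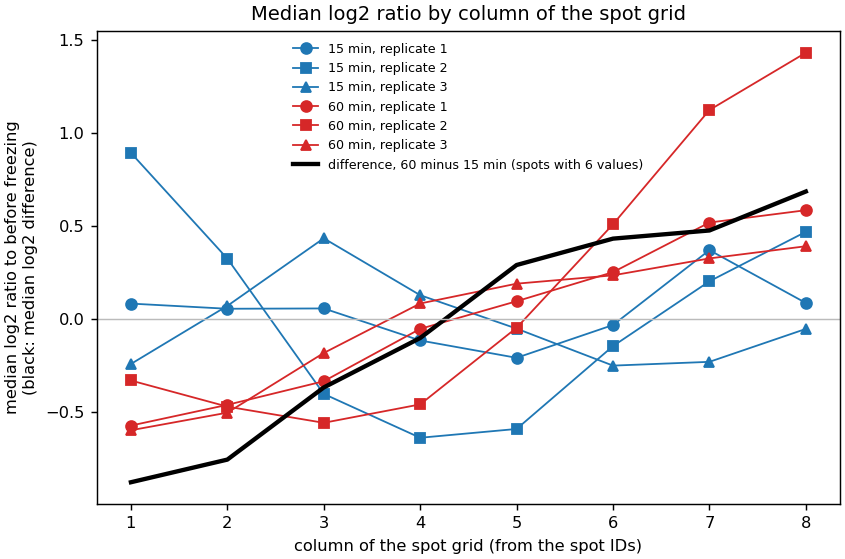
Median log2 ratio to before freezing in each column of the spot grid, on the 3 arrays of 15 min (blue) and the 3 of 60 min (red), with the median difference of spots that have all 6 values (black, log2). The median difference rises from -0.88 in column 1 to 0.68 in column 8, and 60 min replicate 2 reaches 1.43 in column 8.

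As deposited, 18 genes were higher at 60 than at 15 min and 30 were lower at an adjusted p under 0.05 (limma on all 9 arrays with 1 mean per time, two-sided, Benjamini-Hochberg over the 1871 genes). These were 0.962% and 1.6% of the genes tested, and 2.57% in all. With each sector centred, 8 genes were higher and 11 lower, 0.428% and 0.588% of those tested. Of the 48 genes, 17 passed in both fits, and all 48 kept their sign. The 7 higher in both were HSP26, YGP1, PIS1, APE3, NCA3, CPR2 and YBR053C, and the 10 lower in both were IZH4, IZH2, YHR054C, LRP1, FAA4, RPN4, ARO5, ALD5, CGR1 and BCP1. PBI2, higher, and HRP1, lower, passed only after centring. All 18 higher genes lay in columns 5 to 8, which hold 53.9% of the tested genes, and 29 of the 30 lower genes lay in columns 1 to 4, which hold 45.4%. After centring the counts were 7 of 8 and 10 of 11.

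The 3 values at 60 min lay outside the 3 at 15 min for 47 of the 48 genes, with SBP1 the exception. The share over all tested genes was 26.2% (13.6% with every 60 min value above and 12.6% with every one below). After centring all 19 genes were without overlap, and of all tested genes 23.9% were (9.19% above and 14.7% below). The genes were picked on these same values, so their lack of overlap is a description and no separate evidence. With platform as a term in the fit, 38 genes were higher and 53 lower. On the second platform alone, with replicates 2 and 3 of each time, 2739 genes were tested. There 13 were higher and 39 lower, and 24 of the 48 genes passed. With each sector centred as well, the counts were 28 and 63 with the term. They were 12 and 43 on the second platform alone, where 14 of the 19 genes passed. The counts rested on single arrays: without 15 min replicate 1, 2 or 3, 5, 12 and 7 of the 48 genes passed, and without 60 min replicate 1, 2 or 3, 29, 15 and 31 did. HSP26, YGP1 and IZH4 passed as deposited whichever of the 6 arrays was left out, and IZH4 did so with each sector centred too. A fit of only the 6 arrays kept 10 of the 48 genes, namely HSP26, YGP1, PIS1, APE3, HSP12, RPS15, IZH4, OLE1, CIT2 and CGR1. With all arrays set to 1 common spread (their median absolute deviation), IZH4 alone of the 48 passed (limma adjusted p = 0.0242), and the values of HSP26, YGP1 and PIS1 were 0.134, 0.135 and 0.0666. With each sector centred and 1 of the 6 arrays left out at a time, each of the 18 genes other than IZH4 passed in at most 4 of 6 fits. APE3 and ALD5 passed in none of them. BCP1, CGR1, CPR2, FAA4, IZH2, NCA3 and PIS1 passed in 1 of 6.

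**Figure D2:**
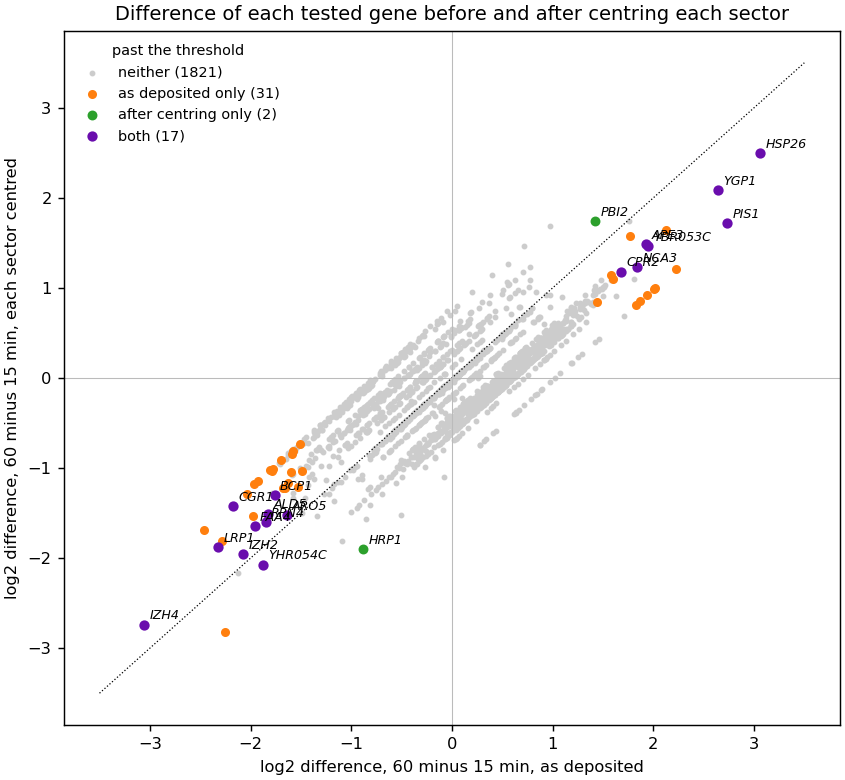
Log2 difference between 60 and 15 min for the 1871 tested genes, as deposited (horizontal) and with each sector centred (vertical); the dotted line marks equality. The 17 genes past the threshold in both fits are purple, the 31 as deposited only orange, and the 2 after centring only green.

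Of the tested genes HSP26 had the largest rise in both forms of the data. It encodes a small heat shock protein that binds unfolding proteins. Its log2 ratio was 0.23, 1.05 and 1.51 at 15 min and 4.64, 4.11 and 3.21 at 60 min, in the order of replicates 1 to 3, as for all values below. The times did not overlap, and HSP26 rose by 3.06 ± 0.47 (SE) on the log2 scale, 8.33-fold (limma adjusted p = 0.00147). With each sector centred the difference was 2.50 ± 0.45 (limma adjusted p = 0.0145). It was 2.18 with the arrays set to 1 common spread, which ended the call (limma adjusted p = 0.134). HSP12, which encodes a small membrane-associated stress protein, stood at 1.36, 2.26 and 2.09 at 15 min and at 4.40, 4.34 and 3.34 at 60 min. It was high at both times and rose 4.35-fold as deposited (limma adjusted p = 0.0358), with a centred difference of 1.64 ± 0.49 that missed the threshold (limma adjusted p = 0.105). The list of disaggregase, small heat shock proteins and sequestrases had 6 tested members, of which HSP26 and HSP12 were higher as deposited and none was lower. After centring HSP26 alone passed. The share of all tested genes that were higher was 0.962% as deposited and 0.428% centred.

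The other members of that list did not all move with HSP26. HSP104, the disaggregase that pulls proteins out of aggregates, was at 2.75, 1.86 and 2.06 at 15 min and at 1.91, 1.58 and 0.76 at 60 min, a difference of -0.81 (limma adjusted p = 0.263) and of -1.28 after centring (limma adjusted p = 0.0869). Its transcript was thus above the culture before freezing on all 6 arrays. HSP31, a methylglyoxalase with chaperone activity, was at -0.18, 0.11 and 1.73 at 15 min and at 3.29, 1.53 and 2.12 at 60 min, so the times overlapped as deposited (difference 1.76, limma adjusted p = 0.0606; centred 1.74, limma adjusted p = 0.0568). Of the 11 tested cytosolic Hsp70 genes and exchange factors none passed in either fit. SSA4, the stress-inducible Hsp70, was at 1.01, 1.97 and 2.24 at 15 min and at 3.07, 3.62 and 2.94 at 60 min, without overlap, and its difference of 1.47 missed the threshold (limma adjusted p = 0.0621; centred 0.99, limma adjusted p = 0.131). HSP104, HSP31, SSA4 and each gene below that is named without having passed were chosen after their values were seen.

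Among 7 tested Hsp90 and co-chaperone genes HCH1, an activator of Hsp90, was higher as deposited by 1.87 ± 0.48 (limma adjusted p = 0.0393), and by 0.85 with its sector centred (limma adjusted p = 0.126). It went from -0.27, 0.56 and 0.06 to 1.44, 3.16 and 1.37. The list median was 0.24 as deposited and turned to -0.08 on centring. CPR2, a cyclophilin, which catalyses proline isomerisation, was at 0.44, 0.18 and 0.26 at 15 min and at 2.07, 2.66 and 1.18 at 60 min. Little spread separated its 15 min values, and CPR2 rose in both fits, by 1.68 ± 0.42 as deposited (limma adjusted p = 0.0358) and by 1.18 ± 0.26 centred (limma adjusted p = 0.0455). SSC1, the mitochondrial Hsp70, went the other way, from 0.49, 1.64 and 0.05 to -1.05, -0.49 and -1.37. It fell by 1.70 on the log2 scale as deposited (limma adjusted p = 0.0387), with a centred difference of -0.91 (limma adjusted p = 0.113). Of the 10 tested chaperonin and prefoldin genes and the 9 ER folding genes none passed in either fit. The chaperonin median was -0.03 as deposited, -0.37 centred and 0.02 with arrays centred on their medians, and the ER folding median turned from 0.33 to -0.02.

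YGP1, a secreted glycoprotein of the cell wall known for its induction under nutrient limitation, was second to HSP26 after centring. Its ratio was 1.18, 1.86 and 1.58 at 15 min and 4.64, 4.64 and 3.26 at 60 min, so every array stood above 0 and the times did not overlap. YGP1 rose 6.24-fold (difference 2.64 ± 0.44, limma adjusted p = 0.00348), and by 2.08 ± 0.35 with each sector centred (limma adjusted p = 0.0145). With the arrays set to 1 common spread it did not pass (difference 1.76, limma adjusted p = 0.135). Of 11 tested general stress genes YGP1 and HSP12 were higher as deposited and none was lower, against 0.962% and 1.6% of all tested genes. The list median was 0.06 as deposited and 0.21 centred, against 0.07 and -0.12 over all tested genes. That median had no stable direction: it was -0.75 with the arrays set to 1 common spread and below 0 in 6 of the 23 alternatives. The wall protein SPI1 was at 1.59, 1.92 and 1.40 at 15 min and at 4.12, 3.80 and 2.00 at 60 min, with a difference of 1.67 that missed the threshold (limma adjusted p = 0.0621; centred 1.18, limma adjusted p = 0.18). None of the 8 tested genes of trehalose and glycogen, the storage carbohydrates, passed, and none of the 28 of the cell wall list did.

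In the list of autophagy and vacuolar proteases APE3 was higher at 60 min in both fits, and PBI2 only after centring. APE3, the vacuolar aminopeptidase Y, was at 0.38, -0.03 and 0.41 at 15 min, near its level before freezing, and at 2.43, 2.31 and 1.81 at 60 min. APE3 rose 3.80-fold (difference 1.93 ± 0.41, limma adjusted p = 0.0205), and by 1.49 ± 0.32 centred (limma adjusted p = 0.0455). PBI2, an inhibitor of vacuolar proteinase B, was at 1.21, -0.36 and 0.88 at 15 min and at 2.67, 1.33 and 2.00 at 60 min. Its difference of 1.42 missed the threshold as deposited (limma adjusted p = 0.0908) and was 1.74 ± 0.31 centred (limma adjusted p = 0.0145). Of 8 tested autophagy and vacuolar protease genes, 1 was higher as deposited and 2 centred, with none lower. Of all tested genes 0.962% and 0.428% were higher. The list medians were 0.46 and 0.43, and 7 of the 8 differences were above 0 as deposited and 5 centred. Over all tested genes 53.1% and 41.5% of differences were above 0. SNA3, a protein of the sorting route to the vacuole, was higher as deposited by 1.58 (limma adjusted p = 0.0387) and by 1.14 centred (limma adjusted p = 0.099).

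The proteasome degrades ubiquitin-tagged proteins. RPN4, the transcription factor of the proteasome genes, was at 0.67, 0.48 and 1.11 at 15 min and at -1.05, -1.13 and -1.12 at 60 min. It stood above the level before freezing on every 15 min array and below it on every 60 min array. RPN4 fell by 1.85 on the log2 scale, 3.61-fold (SE 0.43, limma adjusted p = 0.032), with a centred difference of -1.60 ± 0.28 (limma adjusted p = 0.0145). Among the 32 tested genes of the list, 23 differences were above 0 as deposited and 18 after centring, with medians of 0.28 and 0.08, and the median was -0.02 without 60 min replicate 1. The shares above 0 over all tested genes were 53.1% and 41.5%. PRE6, a subunit of the 20S core, was higher as deposited, from -0.24, 1.15 and 0.34 to 2.37, 3.33 and 1.38 (difference 1.94, limma adjusted p = 0.0436), and by 0.92 centred (limma adjusted p = 0.143). No member but RPN4 passed after centring.

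**Figure D3:**
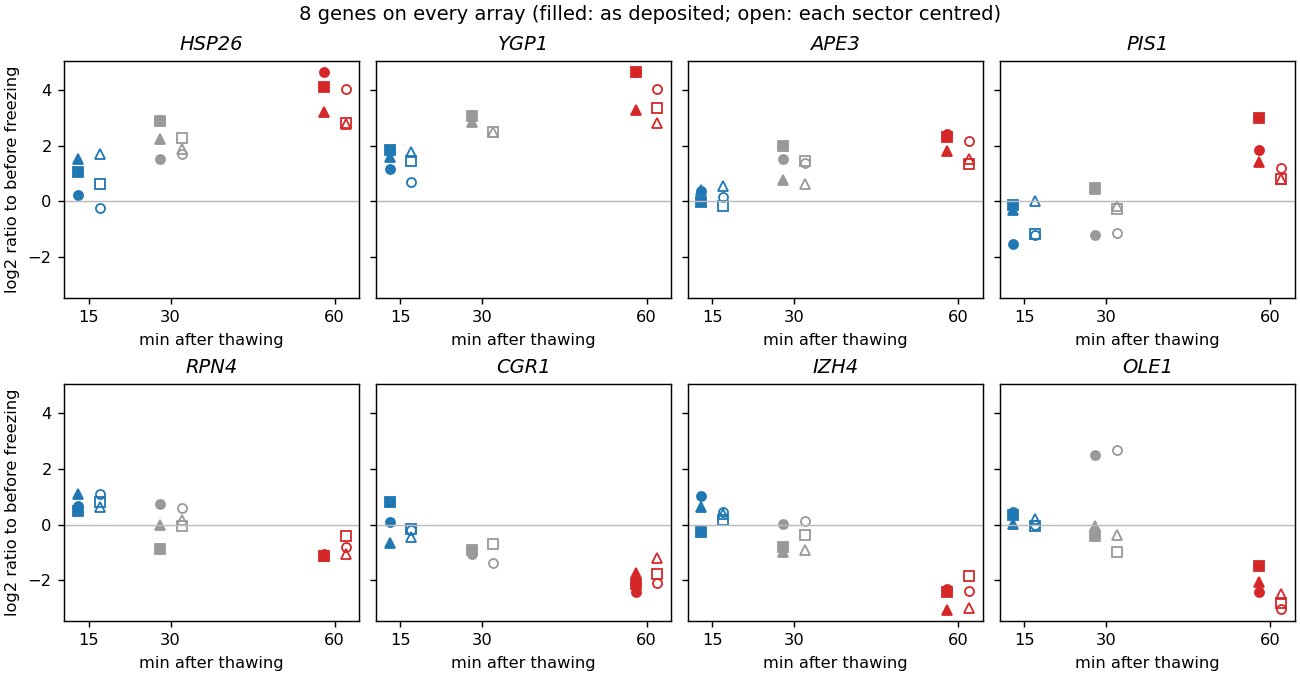
Log2 ratio to before freezing of 8 genes at 15, 30 and 60 min after thawing, 1 point per array (circle, square and triangle for replicates 1, 2 and 3; filled as deposited, open with each sector centred). HSP26, YGP1, APE3 and PIS1 are higher at 60 than at 15 min on every array in both forms, and RPN4, CGR1, IZH4 and OLE1 are lower; OLE1 replicate 1 at 30 min lies at 2.48.

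The largest fall as deposited was that of a membrane protein gene. IZH4 and IZH2 encode membrane proteins of the progestin and adipoQ receptor family whose transcripts are known to answer to zinc and fatty acids. IZH4 was at 1.03, -0.27 and 0.64 at 15 min and at -2.29, -2.41 and -3.06 at 60 min, and the highest 60 min value lay 2.03 below the lowest at 15 min. IZH4 fell by 3.06 on the log2 scale, 8.32-fold (SE 0.44, limma adjusted p = 0.001), with a centred difference of -2.74 ± 0.33 (limma adjusted p = 0.0015). IZH2 was at -0.54, -0.25 and 0.07 at 15 min and at -1.10, -3.16 and -2.69 at 60 min. It was least low in replicate 1 at 60 min, and IZH2 fell by 2.07 on the log2 scale (SE 0.49, limma adjusted p = 0.0342), with a centred difference of -1.95 ± 0.43 (limma adjusted p = 0.0468). Of the same family, IZH1 differed by -0.85 (limma adjusted p = 0.258) and by -1.57 centred (limma adjusted p = 0.0529), and IZH3 by 0.52 (limma adjusted p = 0.465) and by 0.02 centred (limma adjusted p = 0.977). The list of phosphate and zinc genes that holds them had 25 tested members, with IZH4 and IZH2 its only ones past the threshold in either fit. Of all tested genes 1.6% were lower as deposited and 0.588% centred.

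OLE1, the fatty acid desaturase that makes the monounsaturated fatty acids of yeast, was at 0.46, 0.35 and 0.01 at 15 min and at -2.41, -1.49 and -2.06 at 60 min. It was close to its level before freezing at 15 min and below it on every 60 min array, and it fell by 2.26 on the log2 scale as deposited (SE 0.55, limma adjusted p = 0.0358). OLE1 lies in column 7, where the median difference of tested spots was 0.48, and with the sector centred its difference was -2.82 ± 0.65 (limma adjusted p = 0.0522). It was the 1 lower gene outside columns 1 to 4. Its 30 min values were 2.48, -0.41 and -0.04, a spread that enters the standard error of the fit. FAA4, a long-chain fatty acyl-CoA synthetase, went from 0.71, -0.31 and 0.33 to -0.91, -2.09 and -2.14. FAA4 fell by 1.96 on the log2 scale (SE 0.44, limma adjusted p = 0.0257), with a centred difference of -1.64 ± 0.32 (limma adjusted p = 0.0292).

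PIS1, the phosphatidylinositol synthase, moved the other way. It was at -1.51, -0.13 and -0.32 at 15 min, below its level before freezing on each array, and at 1.83, 3.00 and 1.42 at 60 min, above it on each. PIS1 rose 6.66-fold (difference 2.74 ± 0.52, limma adjusted p = 0.0123), and by 1.72 ± 0.36 centred (limma adjusted p = 0.0417). With a smooth surface over the grid removed instead, PIS1 rose by 1.51 and did not pass (limma adjusted p = 0.0714). It lies in row 1, column 8, the sector of 36 tested genes that also held RPS15, SBP1, HCH1, PRE6, COX5B and ASP3-3, that is 7 of the 18 higher genes. In the list of fatty acid and phospholipid genes, 1 of 12 tested members was higher and 2 were lower as deposited, and 1 and 1 after centring. Over all tested genes 0.962% were higher and 1.6% lower as deposited, and 0.428% and 0.588% after centring. Of 16 tested ergosterol genes ERG3, the C-5 sterol desaturase, was higher as deposited. It went from -0.65, -1.01 and -0.94 to 0.63, 1.05 and 0.50, with little spread within either time (difference 1.60 ± 0.38, limma adjusted p = 0.0358), and its centred difference was 1.10 ± 0.26 (limma adjusted p = 0.0529).

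In the list of glyoxylate, gluconeogenesis and acetate genes CIT2 and ALD5 fell. CIT2, the peroxisomal citrate synthase of the glyoxylate cycle, was at 0.12, 2.19 and 1.14 at 15 min and at -0.64, -1.46 and -1.84 at 60 min. It had the highest 15 min mean of the 30 lower genes and fell by 2.46 on the log2 scale as deposited (SE 0.49, limma adjusted p = 0.0167). With the sector centred the times overlapped, and the difference was -1.69 ± 0.46 (limma adjusted p = 0.0765). ALD5, a mitochondrial aldehyde dehydrogenase, went from -0.26, -0.82 and 0.07 to -2.21, -2.29 and -1.99. ALD5 fell by 1.82 on the log2 scale (SE 0.40, limma adjusted p = 0.0234), with a centred difference of -1.51 ± 0.31 (limma adjusted p = 0.0402). All 5 tested members of that list had differences below 0 in both forms, with medians of -0.93 and -0.61, and 2 were lower as deposited and 1 centred. Over all tested genes 46.9% and 58.5% of differences were below 0, and 1.6% and 0.588% of the genes were lower. The list's median ratio was 0.34, 0.69 and 1.14 on the 15 min arrays and -0.57, -0.60 and -0.62 on the 60 min arrays.

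The TCA cycle list had 12 tested genes, none past the threshold in either limma fit. Its differences were above 0 for 10 of 12 genes in both forms, against 53.1% of all tested genes as deposited and 41.5% centred, with medians of 0.61 and 0.58. ACO1, aconitase, had the highest centred difference of the list, 1.03 ± 0.32 (limma adjusted p = 0.11), and 0.56 as deposited (limma adjusted p = 0.43). The 30 tested genes of glycolysis, fermentation and hexose transport had medians of 0.14 and 0.02, and of -0.0027 with the arrays set to 1 common spread, with none past the threshold. In the respiratory chain and ATP synthase list of 22 tested genes, COX5B, the cytochrome c oxidase subunit made at low oxygen, was higher as deposited by 1.83 (limma adjusted p = 0.0358) and by 0.81 centred, with overlap (limma adjusted p = 0.265). NCA3, which encodes a protein of the SUN family linked to the expression of mitochondrial ATP synthase subunits, was at 0.75, 1.00 and -0.57 at 15 min and at 1.84, 2.92 and 1.93 at 60 min. NCA3 rose in both fits, by 1.84 ± 0.45 (limma adjusted p = 0.0358) and by 1.23 ± 0.25 centred (limma adjusted p = 0.0396).

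Genes for building ribosomes had median ratios below 0 at 15 min and further below at 60 min. The 53 tested large subunit assembly factors had a median ratio of -0.40, -0.55 and -0.50 on the 15 min arrays, -1.02, -0.76 and -0.79 on the 30 min arrays and -1.56, -1.17 and -0.83 on the 60 min arrays. Their median difference was -0.63 as deposited and -0.59 centred, and 42 of 53 differences were below 0 as deposited and 48 centred, against 46.9% and 58.5% of all tested genes. Of all tested genes 1.6% were lower as deposited and 0.588% centred. As deposited 4 of the 53 passed, all lower, and centred 1 did. This was CGR1, which acts in processing of large subunit ribosomal RNA. CGR1 went from 0.08, 0.82 and -0.67 to -2.43, -2.13 and -1.72, and it fell by 2.17 on the log2 scale, 4.51-fold (SE 0.43, limma adjusted p = 0.0177), with a centred difference of -1.42 ± 0.31 (limma adjusted p = 0.0468).

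The other 3 assembly factors passed as deposited. NOC2, which takes pre-ribosomes from the nucleolus to the nuclear pore, went from -0.27, -0.80 and -0.49 to -2.48, -2.52 and -1.42 (limma adjusted p = 0.0358). PUF6, an RNA-binding protein of pre-ribosomes that also represses ASH1 translation, went from 0.01, -0.28 and -0.60 to -2.52, -1.58 and -1.57 (limma adjusted p = 0.0387). NIP7, needed for large subunit biogenesis, went from -0.01, 1.21 and -0.33 to -1.49, -1.17 and -1.24 (limma adjusted p = 0.0471). None of the 3 overlapped between times as deposited, but NOC2 did with each sector centred. The centred differences were -1.16 for NOC2, -1.05 for PUF6 and -0.84 for NIP7, each with a limma adjusted p between 0.11 and 0.124.

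The small subunit processome and snoRNP list depended more on the form of the data. Of its 48 tested genes, 29 had a difference below 0 as deposited and 43 centred, against 46.9% and 58.5% of all tested genes. The list medians were -0.13 and -0.47, and the median turned to 0.06 with the arrays set to 1 common spread. KRR1, a processome protein, was lower as deposited, from -0.70, -0.08 and -0.51 to -3.13, -1.59 and -2.49, and it fell by 1.98 on the log2 scale (SE 0.45, limma adjusted p = 0.0303). Its centred difference was -1.54 ± 0.40 (limma adjusted p = 0.0735), and no member passed after centring. LRP1, a cofactor of the nuclear RNA exosome that trims ribosomal RNA precursors, passed in both fits. It went from -1.35, 1.03 and -0.38, a wide spread, to -2.91, -1.97 and -2.78, and it fell by 2.32 on the log2 scale (SE 0.49, limma adjusted p = 0.0203), with a centred difference of -1.88 ± 0.34 (limma adjusted p = 0.0145). Of the 20 tested genes of RNA exosome, Lsm and mRNA decay, LRP1 was the only one past the threshold, and the list median turned from 0.17 to -0.15 on centring.

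Ribosomal protein genes had median differences above 0. The 50 tested small subunit proteins had a median ratio of -0.55, -0.54 and -0.23 at 15 min and of -0.09, -0.12 and -0.17 at 60 min. Their median difference was 0.20 as deposited and 0.32 centred, and 31 and 37 of the 50 differences were above 0. The 65 tested large subunit proteins had medians of 0.18 and 0.16, with 36 and 43 differences above 0. Over all tested genes the medians were 0.07 and -0.12 and the shares above 0 were 53.1% and 41.5%, so the large subunit count as deposited was near that of all genes. RPS15 alone passed among both lists, and only as deposited. It went from -1.21, -0.56 and -0.91 to 1.24, 2.16 and 0.61 (difference 2.23 ± 0.47, limma adjusted p = 0.0203), and its centred difference was 1.21 ± 0.33 (limma adjusted p = 0.0765). Many ribosomal proteins are encoded by near-identical gene pairs, whose transcripts may bind the same spots.

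Translation genes outside the ribosome had differences mostly below 0, and none passed in either fit. Over all tested genes 46.9% of differences were below 0 as deposited and 58.5% centred. Of the 35 tested translation factors 22 were below 0 as deposited and 31 centred, with medians of -0.16 and -0.38. Of the 15 tested aminoacyl-tRNA synthetases, which charge tRNAs, 13 and 12 were below 0, with medians of -0.72 and -0.34. The 22 tested genes of RNA polymerases I and III had medians of -0.06 and -0.10, and of 0.05 with the arrays set to 1 common spread. BCP1, which encodes a nuclear protein that acts as a chaperone of a large subunit ribosomal protein, was in no list and passed in both fits. It went from -1.19, 0.34 and -0.54 to -2.29, -2.62 and -1.76 (difference -1.76 ± 0.44, limma adjusted p = 0.0358), and its centred difference was -1.30 ± 0.29 (limma adjusted p = 0.0497).

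**Figure D4:**
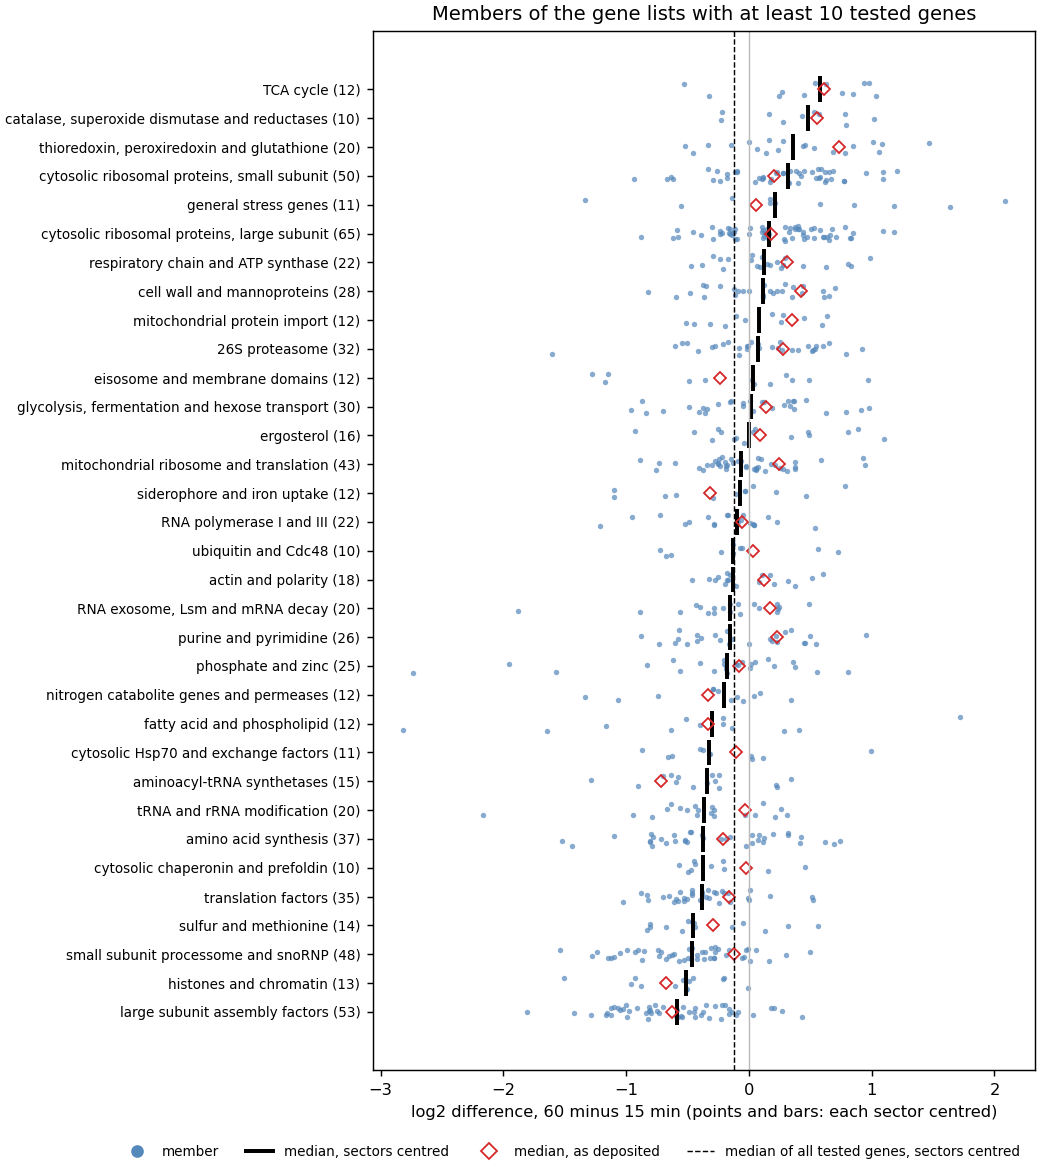
Log2 difference between 60 and 15 min, with each sector centred, of every tested member (points) of the gene lists with at least 10 tested genes; bars are list medians after centring, open diamonds are medians as deposited, and the dashed line is the median of all tested genes after centring, -0.12. Large subunit assembly factors lie lowest (-0.59) and the TCA cycle highest (0.58).

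The medians of both redox lists were above that of all tested genes, and no member of either passed in either fit. Of the 20 tested genes of thioredoxin, peroxiredoxin and glutathione 15 had a difference above 0 as deposited and 16 centred, with medians of 0.73 and 0.36, while the lowest difference was -1.08 as deposited. Of all tested genes 53.1% and 41.5% had a difference above 0. The 10 tested genes of catalase, superoxide dismutase and reductases had medians of 0.55 and 0.48. TRX2, a cytosolic thioredoxin, was at -0.06, -0.97 and 0.39 at 15 min and at 1.31, 1.61 and 0.90 at 60 min, without overlap, and missed the threshold (difference 1.48, limma adjusted p = 0.0606; centred 1.08, limma adjusted p = 0.11). The 12 tested genes of siderophore and iron uptake had medians of -0.32 and -0.07, with none past the threshold.

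All 13 tested histone and chromatin genes had a centred difference below 0, against 58.5% of all tested genes. As deposited 11 had one, against 46.9%. The list medians were -0.68 as deposited and -0.52 centred, and none of the 13 passed in either fit. HHT2, a histone H3 gene, was at 0.45, -0.69 and 0.01 at 15 min and at -0.81, -1.85 and -2.03 at 60 min (difference -1.49, limma adjusted p = 0.0648; centred -1.50, limma adjusted p = 0.0684). Its sequence is shared in large part with the other H3 gene, so the spot may report both. Among 37 tested amino acid synthesis genes none passed, and the medians were -0.21 and -0.37. Among 14 tested sulfur and methionine genes MET4, the transcriptional activator of sulfur metabolism, was lower as deposited, from 0.08, 0.13 and 0.36 to -2.11, -0.57 and -1.49 (limma adjusted p = 0.0436), and by less after centring (difference -0.81, limma adjusted p = 0.157).

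The other lists held few or no genes past the threshold. EIS1 was the 1 lower gene of 12 in the list of eisosome and membrane domains as deposited, and none passed there after centring; its median turned from -0.23 to 0.03. None passed in either limma fit among 10 tested genes of ubiquitin and Cdc48, 12 of nitrogen catabolism and permeases, 26 of purine and pyrimidine synthesis, 20 of tRNA and rRNA modification, 43 of the mitochondrial ribosome, 12 of mitochondrial import and 8 of nuclear import and export. The same held for 18 genes of actin and polarity, 6 of cyclins and cell cycle, 6 of glycerol and osmotic stress, 5 of meiosis and mating and 2 of aromatic amino acid breakdown. Of these, tRNA and rRNA modification had the lowest centred median, -0.36, apart from the cyclins at -0.38, and as deposited the medians of both were near 0, at -0.03 and 0.08. In 28 lists no gene passed in either limma fit. Of their 504 tested genes 98 had an unadjusted limma p under 0.05 as deposited and 86 centred, 19.4% and 17.1%, against 22.8% and 18.8% of all tested genes. In each form 12 of the 28 lists had a share above that of all tested genes and the others one below it.

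YHR054C, an uncharacterised gene within the repeated CUP1 region, was at 1.43, 0.66 and 0.89 at 15 min and at -0.39, -1.57 and -0.70 at 60 min. Every 15 min value was above the level before freezing and every 60 min value below it. The difference was -1.88 ± 0.45 (limma adjusted p = 0.0358), and -2.07 ± 0.41 centred (limma adjusted p = 0.0292). Copies of the repeat may bind the same spot. ARO5 was below 0 on all 6 arrays, at -1.97, -1.49 and -0.77 and then -2.84, -3.07 and -3.24. The difference was -1.64 ± 0.41 (limma adjusted p = 0.0358), and -1.52 ± 0.26 centred (limma adjusted p = 0.0145). YBR053C, of unknown function, was higher in both fits, from 0.11, -0.01 and 0.86 to 2.63, 2.30 and 1.85 (difference 1.94 ± 0.40, limma adjusted p = 0.0203; centred 1.47 ± 0.33, limma adjusted p = 0.0497).

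HRP1, a subunit of the factor that cleaves pre-mRNA at the 3' end, passed only after centring. As deposited it overlapped, at 0.00, 1.64 and 0.09 at 15 min and at -0.60, 1.11 and -1.42 at 60 min, with replicate 2 high at both times (difference -0.88, limma adjusted p = 0.372). Its sector, row 1 of column 8, is the one with 7 of the higher genes, and centring set its values to 0.32, 0.60 and 0.43 at the earlier time and to -1.24, -1.08 and -2.03 at the later. The centred difference was -1.90 ± 0.33 (limma adjusted p = 0.0145).

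The remaining genes past the threshold as deposited did not pass after centring. Among the higher ones were YRO2, a plasma membrane protein related to Hsp30 (difference 1.76), ASP3-3, a cell-wall asparaginase with near-identical copies (2.01), SBP1, an RNA-binding repressor of translation (2.02), and ERV25, a cargo protein of vesicles from the ER (1.44). Among the lower ones were DIA1, of unknown function (-2.29), HAL5, a kinase of ion homeostasis (-2.04), EIS1, an eisosome protein (-1.96), and MAL33, an activator of maltose genes (-1.93). Heme synthesis was represented by HEM13, coproporphyrinogen oxidase, which went from -0.69, 0.68 and -1.15 to -2.61, -1.84 and -2.14 (difference -1.81). The other 7 were REX4 (-1.78), a putative nuclease of ribosomal RNA, YOS9 (-1.78), a lectin of ER quality control, YMC2 (-1.68), a mitochondrial carrier, ADR1 (-1.65), an activator of glucose-repressed genes, SFM1 (-1.53) and EFM6 (-1.49), protein methyltransferases, and MDG1 (-1.51), a plasma membrane protein of the pheromone pathway. The limma adjusted p of the genes named here ran from 0.0203 for DIA1 to 0.0471 for EFM6 as deposited, and centred from 0.0529 for YRO2 and DIA1 to 0.159 for MDG1.

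**Figure D5:**
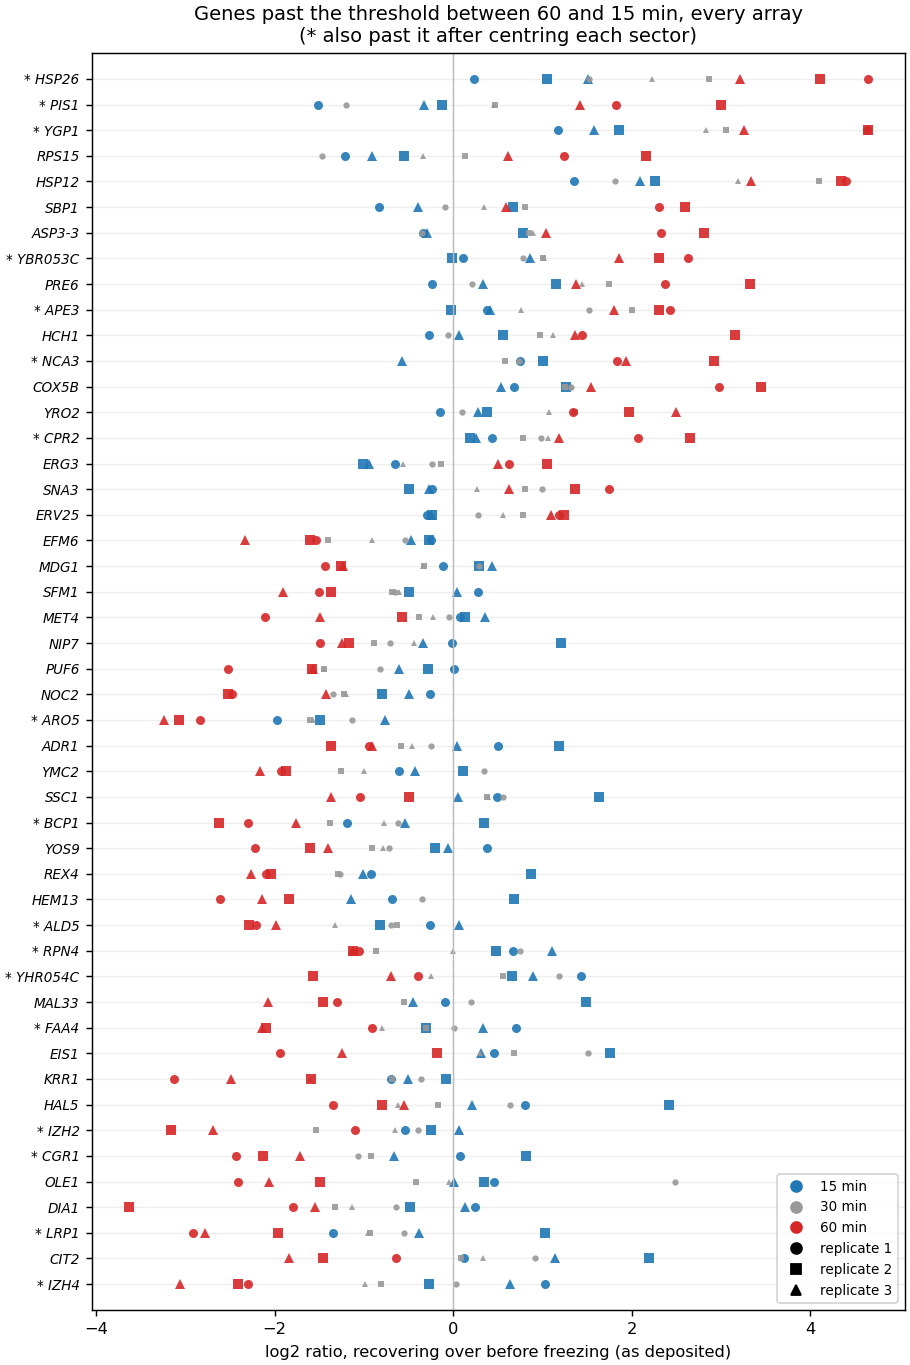
Log2 ratio to before freezing, as deposited, of the 48 genes past the threshold between 60 and 15 min, 1 point per array at 15 min (blue), 30 min (grey) and 60 min (red), with replicates 1, 2 and 3 as circle, square and triangle. Every 60 min value is above 0 for the 18 higher genes and below 0 for the 30 lower genes, and stars mark the 17 that also passed after centring.

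Of the 18 higher genes 12 had a 15 min mean above 0 and 6 below, and every value at 60 min of all 18 lay above 0. Of the 30 lower genes 16 had a 15 min mean above 0 and 14 below, and every value at 60 min of all 30 lay below 0. These means are part of the differences by which the genes were picked, so they are a description only. The 30 min values do not enter the difference but do enter the standard error, so they are no separate evidence for these genes either. HSP26 had 1.52, 2.87 and 2.23 at 30 min and IZH4 had 0.03, -0.81 and -0.98, in each case with a mean between those at the other times. As deposited OLE1, with 1 high array at 30 min, was the exception among the lower genes with 3 values at that time. Of all tested genes with 3 values at 30 min, 52.9% had a mean between those at the other times. With each sector centred the 30 min mean of EIS1 lay outside too, at 0.91 against 0.73 at 15 min and -0.44 at 60 min.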

How the data were processed

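The values are log2 ratios that the authors deposited after LOWESS normalization, an intensity-dependent correction within an array, of spots with flag value 0, per the labels. No scanner or background correction is named in the labels, and intensities were not used here. The log base was set from the lowest deposited value, -6.64, which is the log2 of 0.01. The number of arrays, 3 per time, limits the precision. Spots of 1 gene were averaged, missing values were not filled in, and 5185 of 5189 genes matched RefSeq R64, used for names only.

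The model, limma 3.58.1 run in R 4.3.3, gave each time its own mean over all 9 arrays; platform and replicate number were not terms. The fit was run on simulated data with known differences and with noise that was independent between genes and arrays. That noise held no effect of sector, platform or array, so the run says nothing about the calls made here. P-values measure the spread between these arrays. Genes named are the 10 with the largest difference without overlap in each direction, up to 3 past the threshold per list and direction, and the 5 of extreme 15 min mean in each direction. Other genes named, such as BCP1, PBI2 and HRP1, were chosen after their values were seen. The members and the 45 lists were chosen with earlier results of these data known. Sector centring and a loess surface (span 0.15) over the grid were added after the data were seen.

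The labels state no pairing of the samples by number, so the numbers were not taken to pair them. Same-numbered deviations of 15 and 60 min correlated at 0.0220, 0.526 and 0.347 over 1657 genes as deposited, which neither shows nor excludes a pairing. Alternatives are in the closing section. Sequences and positions in the genome are not given.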

Additional observations from a re-analysis of the deposited data

How the results depend on the processing

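No difference of a gene named by the rule turned its sign under any alternative. For many alternatives this was fixed in advance. The times of these genes do not overlap as deposited, so leaving out arrays could not turn a sign. The platform term, the replicate block and the fit of only the 6 arrays leave the difference unchanged. Fits that change the values, such as sector centring, could have turned one. As deposited (18 higher, 30 lower), the counts were 6 and 4 with only the 6 arrays, whose spread leaves out 30 min, 15 and 17 with arrays centred on their medians, and 0 and 1 with the arrays set to 1 median absolute deviation (limma; 308 genes had an unadjusted p under 0.05). The platform term gave 38 and 53, and the smooth surface 11 and 27. Sector centring gave 8 and 11. Leaving out 1 array or 1 number gave 1 to 34 higher and 0 to 39 lower genes, the 0 without replicate 3 (276 genes at an unadjusted p under 0.05). The replicate block, a pairing that the labels do not state, gave 74 and 100, and 56 and 73 with only the 6 arrays. With each sector centred, the counts were 4 and 10 with only the 6 arrays, 28 and 63 with the platform term, 0 and 5 at 1 median absolute deviation (274 unadjusted), 47 and 141 with array weights, 4 and 7 with at least 2 arrays per time, and 11 and 27 with the smooth surface in place of sectors. Leaving out 1 array or 1 number gave 0 to 12 higher and 1 to 43 lower, with 0 higher without 15 min replicate 1 or 2 or without replicate 2 (363, 266 and 179 genes at an unadjusted p under 0.05). The replicate block then gave 18 and 48, and 16 and 40 with only the 6 arrays; the centred deviations of the same number correlated at 0.0703, 0.158 and -0.0147. The causes were not tested. The smallest fold that passed as deposited was 2.71, and of 325 genes at 2-fold or more 48 passed, so most genes over 2-fold did not reach the threshold.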

Other observations

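With a value on at least 2 arrays at each time, 3296 genes could be tested and 7 further genes passed as deposited (limma, adjusted p under 0.05). SAG1, the agglutinin of alpha cells, was at -0.49 and 0.27 on the 2 arrays of 15 min with a value and at 1.93, 3.10 and 2.26 at 60 min (difference 2.54 ± 0.50, limma adjusted p = 0.0168). RTN2, a reticulon of the ER, was at 1.09 and 2.37 at 15 min and at 5.92 and 3.29 at 60 min, the highest level among the 7 (limma adjusted p = 0.0388). PST1, a cell wall protein, was at 1.09 and 0.70 at 15 min and at 3.40 and 2.84 at 60 min (limma adjusted p = 0.0388). MMS2, a ubiquitin-conjugating enzyme variant of DNA repair, and ASP3-2, a copy of the asparaginase gene, were also higher, by 2.23 and 2.06. HCA4, a helicase of ribosomal RNA processing, and KCS1, an inositol pyrophosphate kinase, were lower, by -1.87 and -2.36. These genes rest on fewer values than the others, and the values given for them are as deposited. With each sector centred the same requirement left 4 higher and 7 lower genes in all. Of these, 10 were among the genes named earlier as past the threshold after centring. Most of the 7 further genes thus did not pass after centring.

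Of the 52 tested spots without a gene symbol, 1 was lower at 60 min, by -1.92 (limma adjusted p = 0.0315), with 15 min values of -0.94, 0.66 and -0.86 and 60 min values of -2.76, -1.92 and -2.22, and none was higher. BCD1, EAF6, HER2, MKC7, VPS54 and YOR296W had no value on any 15 min array and a value on all 3 at 60 min. Their 60 min means ran from -0.82 to 0.15, so the values at 60 min do not place them among the strongly changed genes, and a missing value is not a level of 0.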
